A study of Homo sapiens with 24 samples.

Results

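The genes described here encode 8 receptors through which myeloid cells sense chemoattractants: the formyl peptide receptors FPR1 and FPR2, the complement receptors C5AR1 and C3AR1, and the chemokine receptors CCR1, CCR2, CX3CR1 and CXCR4. They were chosen by name, 8 of the 55773 gene names counted in the series, and all 8 passed the filter on low counts that left 20147 genes for testing. RNA was sequenced from U937 cells, a line of human monocyte-like leukaemic cells, in 24 libraries of 8 groups with 3 replicates each. The inhibitor groups received 2 or 4 µM UNC0638, which blocks the catalytic sites of the histone H3 lysine 9 (H3K9) methyltransferases G9a and GLP, and were collected at 3 days, while their control was a mock treatment with DMSO. The knockdown groups were transduced with lentivirus coding for G9a hairpin 2 or 3, or SUV39H1 hairpin 2 or 4, and kept in puromycin for 3 days, while their control carried a scrambled hairpin. For DMSO the sources used here state no time, and for the scrambled hairpin no selection. Everything was measured in this 1 cell line, and replicates are not stated to be separate cultures, so p-values measure only the spread between these libraries, which may be technical.

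These receptors span the membrane and signal through heterotrimeric G proteins, mostly of the inhibitory class, to calcium, phosphoinositide 3-kinase and the actin cytoskeleton, so that the cell moves up a gradient of its ligand. FPR1 and FPR2 read formylated peptides released by bacteria and mitochondria, C5AR1 and C3AR1 read the complement fragments C5a and C3a, and CCR2 draws classical monocytes out of bone marrow along CCL2. CXCR4, the receptor of CXCL12, retains progenitors in marrow and is expressed early in the myeloid lineage, whereas the formyl peptide and C5a receptors are acquired as myeloid cells mature. H3K9 dimethylation, written mainly by G9a and GLP, and trimethylation, written by SUV39H1 and its paralog, are marks of silent chromatin.

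The 3 promoters whose genes bracket the results below, 2 that were lowly expressed in control cells and 1 that was abundant, are shown to let their base composition be compared. They are the 250 bases before the first RefSeq start of each gene (assembly GRCh38.p14, a different build from that of the counts), read along the gene's own strand, with capitals marking AGGAA or its reverse complement TTCCT, the core of sites for ETS factors such as PU.1. They cover chr3:46353861-46354110 on the plus strand for CCR2, chr19:51751879-51752128 on the minus strand for FPR1 and chr2:136118150-136118399 on the minus strand for CXCR4.
CCR2: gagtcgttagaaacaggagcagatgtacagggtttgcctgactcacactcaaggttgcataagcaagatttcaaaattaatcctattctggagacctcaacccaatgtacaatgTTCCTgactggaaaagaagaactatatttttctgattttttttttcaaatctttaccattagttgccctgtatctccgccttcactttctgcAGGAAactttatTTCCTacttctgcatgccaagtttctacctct
FPR1: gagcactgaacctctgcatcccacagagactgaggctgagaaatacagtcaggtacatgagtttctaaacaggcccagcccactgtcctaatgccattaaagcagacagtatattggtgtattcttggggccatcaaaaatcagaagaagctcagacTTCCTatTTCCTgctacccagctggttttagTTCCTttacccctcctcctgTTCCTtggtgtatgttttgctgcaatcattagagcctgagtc
CXCR4: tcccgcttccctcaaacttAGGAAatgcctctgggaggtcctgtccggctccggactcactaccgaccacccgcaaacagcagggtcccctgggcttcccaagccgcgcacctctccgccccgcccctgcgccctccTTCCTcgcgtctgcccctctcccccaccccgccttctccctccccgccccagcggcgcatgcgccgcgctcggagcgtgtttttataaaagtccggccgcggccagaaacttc

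The CXCR4 window held 24 CG pairs, as many as or more than which were held by 23.7% of the 35116 promoters in the RefSeq table. The FPR1 window held 0, as did 6.06% of all promoters, and the CCR2 window held 2. The windows of the other 5 receptors held between 1 (C3AR1) and 7 (C5AR1), against a median of 11 over all promoters. AGGAA on either strand was found in all 8 receptor windows and in 56.8% of all promoters, and is thus a common run of letters. Of the other motifs searched on both strands, TTCNNNGAA, the form of a gamma-activated site, was in the FPR2 and CCR1 windows and in 6.57% of all promoters. TATAAA was in the CXCR4 and C3AR1 windows and in 10.7%, and the interferon-stimulated response element, searched as GAAA, any 2 bases and GAAA, was in 0 of 8 and in 3.02%. A match describes letters only and is not evidence of a bound site.

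Library totals ran from 31545854 to 53803704 counts. Levels are in CPM (counts divided by the library total and scaled), ± SD over 3 libraries, and fold changes are log2 values ± SE from edgeR's quasi-likelihood fit over all 24 libraries, with Benjamini-Hochberg adjustment over 20147 genes and calls at an adjusted p under 0.05. The targeted transcripts went with their labels: EHMT2, which encodes G9a, averaged 72.6 and 71.6 CPM with G9a hairpins 2 and 3, against 140 ± 8.8 CPM with the scrambled hairpin, and SUV39H1 averaged 19.3 and 22.4 CPM with its hairpins 2 and 4, against 56.5 CPM. EHMT2 was also lower with SUV39H1 hairpins 2 (-0.41 ± 0.06) and 4 (-0.16 ± 0.06) than with the scrambled hairpin, and both passed. In CPM, however, EHMT2 with hairpin 4 overlapped the scrambled libraries (134 to 139 against 134 to 150 CPM). DMSO replicate 1 stood apart from DMSO replicates 2 and 3, and calls at 2 µM that rest on it are given with and without it. All 15 myelomonocytic markers examined were detected in every group, MPO at no more than 1.95 CPM, while the defining T cell genes CD3D, CD3E and CD3G and the B cell gene MS4A1 had at most 2 counts in a library, and the erythroid markers together stayed under 0.32 CPM.

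On the per-length scale, CXCR4 was the most abundant of the 8 transcripts in every group, at 85.3 to 246 CPM per kb, while no other receptor exceeded 23.1 CPM per kb in any group. In DMSO cells C3AR1 and CCR1 followed at 8.21 and 7.65 CPM per kb, FPR2 and CX3CR1 stood at 3.37 and 2.84, and C5AR1, FPR1 and CCR2 stood at 0.988, 0.451 and 0.256. CCR2 was the lowest in DMSO cells and the receptor with the widest span, its highest group mean in CPM being 73.8 times its lowest. FPR1 spanned 18.6-fold and the other 6 receptors spanned 2.89- to 8.15-fold. A test for any difference among the 8 groups called all 8 receptors, in a setting where 84.7% of all genes were called. In such bulk samples, fewer cells of a kind and less RNA per cell cannot be told apart.

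**Figure D1:**
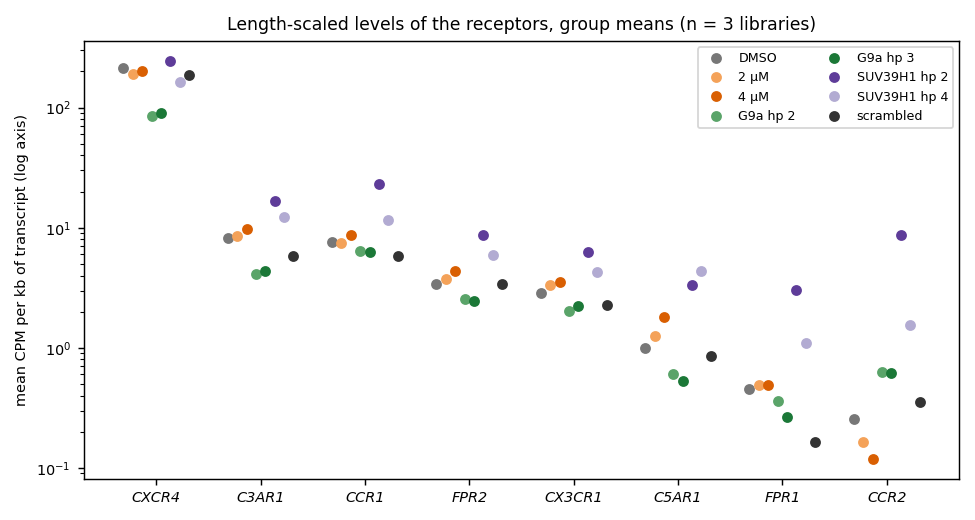
Mean CPM per kb of transcript (log axis) for the 8 receptors, ordered by their level in DMSO, each point 1 group mean of 3 libraries. CXCR4 lies above 85 CPM per kb in every group, and CCR2, at 0.256 in DMSO, reaches 8.78 with SUV39H1 hairpin 2.

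The first comparison asked which receptors respond when the enzymes G9a and GLP are inhibited. At 4 µM UNC0638, 5 of the 8 receptors rose (C5AR1, FPR2, CX3CR1, C3AR1 and CCR1), CCR2 fell, and FPR1 and CXCR4 did not pass the test. These 6 calls stand against 19.9% of all genes called (10.2% higher and 9.73% lower), and the receptors' median log2 fold change was 0.228 beside -0.00589 over all genes. C5AR1, the C5a receptor, moved the most of those that rose.

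C5AR1 had 2.61, 3.23 and 2.91 CPM in DMSO, 3.49, 4.07 and 3.57 CPM at 2 µM and 5.21, 5.34 and 5.54 CPM at 4 µM. Each dose lay above the one below it with no overlap. The log2 fold change was 0.90 ± 0.10 at 4 µM against DMSO (adjusted p = 1.39e-07), 0.35 ± 0.11 at 2 µM against DMSO (adjusted p = 0.0421) and 0.55 ± 0.09 for 4 against 2 µM (adjusted p = 0.00078). The other complement receptor, C3AR1, which reads C3a, had 17.3 to 17.9 CPM in DMSO, 18.0 to 18.7 at 2 µM and 20.6 to 21.4 at 4 µM. Its rise passed at 4 µM (0.26 ± 0.05, adjusted p = 0.00116), with 0.06 ± 0.06 at 2 µM.

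FPR2, a receptor of formyl peptides, lipids and amyloid-like peptides, had 12.2, 13.2 and 12.0 CPM in DMSO, 14.3, 13.1 and 14.1 CPM at 2 µM and 16.4, 15.3 and 16.3 CPM at 4 µM. The 4 µM libraries were all above the others, and the rise passed at 4 µM (0.37 ± 0.05, adjusted p = 4.86e-06) but not at 2 µM (0.15 ± 0.05, adjusted p = 0.0826). FPR1, the high-affinity formyl peptide receptor, had 0.966, 1.48 and 1.07 CPM in DMSO, 1.26, 1.13 and 1.39 CPM at 2 µM and 1.47, 1.14 and 1.18 CPM at 4 µM. Its groups overlapped, and with 43 to 68 counts per library the 95% interval of its log2 fold change at 4 µM ran from -0.24 to 0.54.

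Among the chemokine receptors, CCR2 went the other way. It had 0.876, 1.13 and 0.858 CPM in DMSO, 0.628, 0.645 and 0.553 CPM at 2 µM and 0.557, 0.363 and 0.413 CPM at 4 µM, and all 6 treated libraries lay below all 3 DMSO libraries. The log2 fold change was -1.06 ± 0.19 at 4 µM (adjusted p = 0.000157) and -0.63 ± 0.18 at 2 µM (adjusted p = 0.0408), on 16 to 41 counts per library. CX3CR1, the fractalkine receptor of patrolling monocytes, had 10.1 to 10.5 CPM in DMSO, 11.9 to 12.5 at 2 µM and 12.8 to 13.3 at 4 µM, with no overlap between doses. It rose by 0.34 ± 0.07 at 4 µM (adjusted p = 0.000547) and by 0.24 ± 0.07 at 2 µM (adjusted p = 0.0298).

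CCR1, a receptor of CCL3, CCL5 and CCL23, rose at 4 µM (0.20 ± 0.05, adjusted p = 0.00229), while 2 µM gave -0.03 ± 0.05. The dose difference itself passed (0.23 ± 0.05, adjusted p = 0.00494), with 19.7 to 22.0 CPM in DMSO, 19.9 to 21.2 at 2 µM and 23.4 to 24.1 at 4 µM. CXCR4 had 473, 476 and 482 CPM in DMSO, 428, 427 and 423 CPM at 2 µM and 424, 448 and 470 CPM at 4 µM. It fell at 2 µM (-0.17 ± 0.04, adjusted p = 0.0045), and at 4 µM its libraries also lay below DMSO but did not pass (-0.09 ± 0.04, adjusted p = 0.112).

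At 2 µM, then, 4 receptors were called (C5AR1 and CX3CR1 higher, CCR2 and CXCR4 lower), where 7.17% of all genes were called, 3.83% higher and 3.34% lower. Between the doses, C5AR1, CCR1 and FPR2 were higher at 4 than at 2 µM, where 1.84% of all genes were called and 1.39% were higher. The FPR2 call between doses ended with no low-count filter (0.23, edgeR adjusted p = 0.0593), with the compared libraries alone (0.22, adjusted p = 0.117) and without 2 µM replicate 2 (0.19, adjusted p = 0.144) or 4 µM replicate 1 (0.21, adjusted p = 0.0793) or 3 (0.20, adjusted p = 0.0892). That of CCR1 ended without 2 µM replicate 3 (0.20, adjusted p = 0.0551). Without DMSO replicate 1, C5AR1 (0.28, edgeR adjusted p = 0.131) and CX3CR1 (0.21, adjusted p = 0.0677) lost their calls at 2 µM, and 0 of the 4 passed when the 2 µM and DMSO libraries were fitted alone. Leaving out any of the 6 libraries left 1 to 3 receptors called at this dose, with CXCR4 called each time and CCR2 only without DMSO replicate 1. C5AR1 and CX3CR1 each lost the call in 5 of these 6 fits, so their loss is not particular to DMSO replicate 1. In the fit on the compared libraries alone, CCR1 also lost its call at 4 µM (0.20, adjusted p = 0.058).

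**Figure D2:**
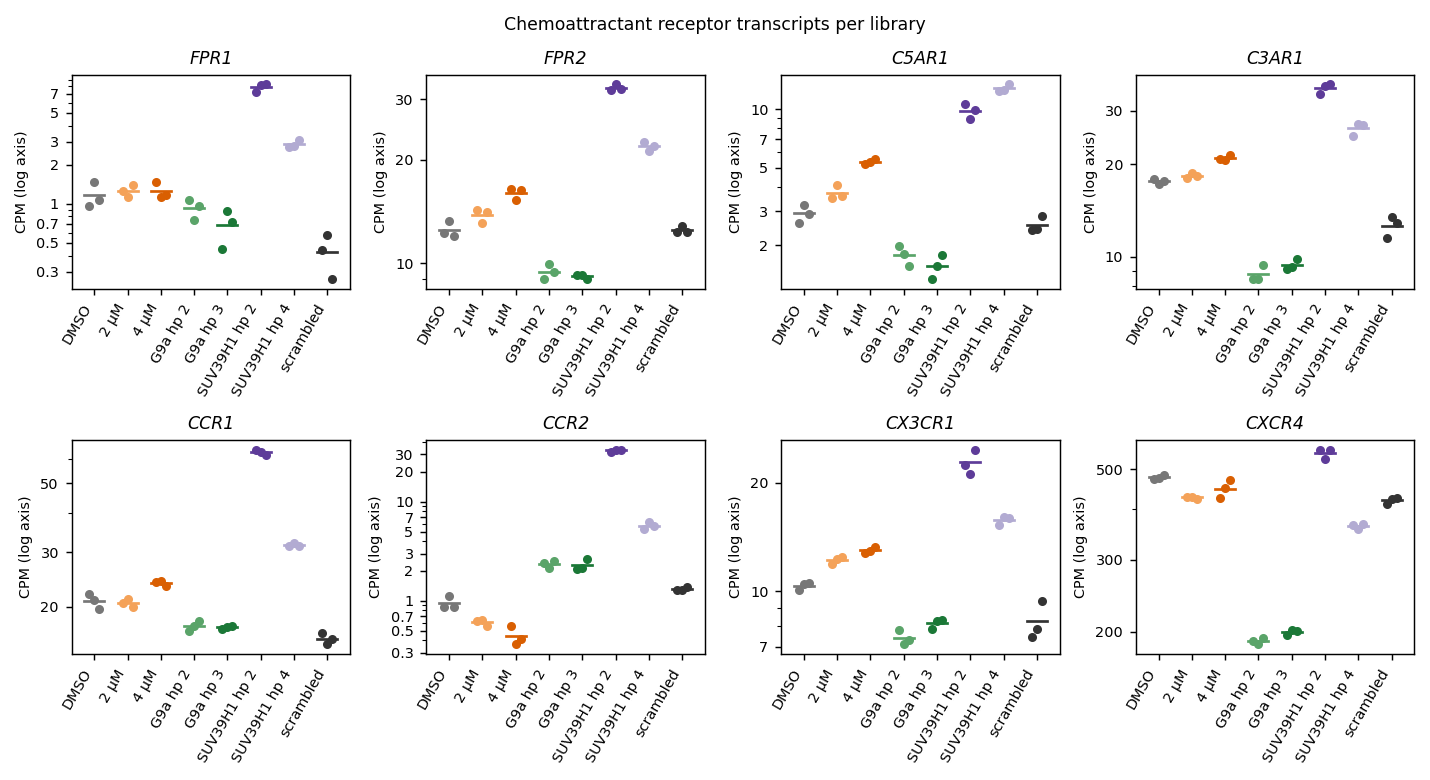
CPM of each receptor in every library (log axis), with 3 points and a bar at the mean for each group. C5AR1 climbs from DMSO through 2 to 4 µM, CCR2 descends over the same groups, and with SUV39H1 hairpin 2 every receptor lies above the scrambled libraries.

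The second comparison asked what followed from lowering G9a itself. With the mean of both G9a hairpins against scrambled, CXCR4, C5AR1, C3AR1 and FPR2 fell, FPR1, CCR2 and CCR1 rose, and CX3CR1 did not pass. These 7 calls stand against 49.9% of all genes called, 25.0% higher and 24.9% lower. CXCR4 carried the largest change of the 8.

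CXCR4 had 190, 186 and 193 CPM with G9a hairpin 2 and 196, 202 and 200 CPM with hairpin 3, against 411, 422 and 424 CPM with the scrambled hairpin. The G9a libraries were also below every library of the inhibitor arm. The log2 fold change was -1.16 ± 0.04 with hairpin 2 (adjusted p = 1.93e-18) and -1.08 ± 0.04 with hairpin 3 (adjusted p = 9.69e-18), or 44.7% and 47.3% of the scrambled level by the fit.

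C5AR1 had 1.99, 1.81 and 1.56 CPM with hairpin 2 and 1.34, 1.57 and 1.79 CPM with hairpin 3, against 2.39, 2.41 and 2.82 CPM with the scrambled hairpin, and fell by 0.61 ± 0.11 on the log2 scale with the hairpin mean (adjusted p = 3.39e-05). C3AR1 had 8.43 to 9.80 CPM in the 6 G9a libraries, against 11.5 to 13.4 CPM with the scrambled hairpin, and its log2 fold change was -0.49 ± 0.05 (adjusted p = 1.59e-08). FPR2 had 8.98 to 9.92 CPM, against 12.3 to 12.8 CPM, and its log2 fold change was -0.44 ± 0.05 (adjusted p = 1.32e-08). In all 3 genes the 6 G9a libraries lay below all scrambled libraries, a separation that was not counted over all genes.

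CCR2 had 2.42, 2.14 and 2.51 CPM with hairpin 2 and 2.12, 2.16 and 2.62 CPM with hairpin 3, against 1.28, 1.28 and 1.39 CPM with the scrambled hairpin, with no overlap. It rose by 0.81 ± 0.11 (adjusted p = 7.16e-07). FPR1 had 0.447 to 1.07 CPM in the G9a libraries, against 0.263 to 0.575 CPM with the scrambled hairpin, so its groups overlapped, and its rise of 0.85 ± 0.23 (adjusted p = 0.00356) passed with hairpin 2 but not with hairpin 3 (0.63 ± 0.27, adjusted p = 0.0613). The rise with hairpin 3 passed with no low-count filter (0.64, edgeR adjusted p = 0.0407), without hairpin 3 replicate 1 (0.87, adjusted p = 0.0122) and without scrambled replicate 2 (0.98, adjusted p = 0.0188). CCR1 rose by 0.12 ± 0.04 (adjusted p = 0.0229), a call that ended under several other settings given in the closing section. CX3CR1 gave -0.10 ± 0.06 (adjusted p = 0.194).

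The hairpins gave like values: 7 receptors were called with hairpin 2, where 44.4% of all genes were called, and 5 with hairpin 3, where 44.7% were. Compared directly, 0 of the 8 receptors differed between hairpins 3 and 2 in edgeR's test, where 0.00993% of all genes did. DESeq2 also called 0, and at an unadjusted p under 0.05 there was 1 receptor, CXCR4 (0.08, 95% interval 0.01 to 0.16).

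The third comparison asked the same of SUV39H1. With the mean of its hairpins, 7 receptors rose against scrambled and CXCR4 did not pass, where 67.8% of all genes were called and 35.1% were higher. The receptors' median log2 fold change was 1.28, beside 0.0251 over all genes. With hairpin 2 alone all 8 rose, where 67.1% of all genes were called and 34.5% were higher. With hairpin 4 the same 7 rose and CXCR4 fell, where 60.9% were called, 31.8% higher and 29.2% lower.

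CCR2 had 31.9, 32.9 and 33.5 CPM with SUV39H1 hairpin 2 and 5.26, 6.21 and 5.72 CPM with hairpin 4, against 1.28, 1.28 and 1.39 CPM with the scrambled hairpin. The hairpin groups lay far apart from each other and both lay above every other library of the series. Its log2 fold change was 4.54 ± 0.09 with hairpin 2, or 23.3-fold (adjusted p = 1.36e-24), and 1.99 ± 0.10 with hairpin 4, or 3.96-fold (adjusted p = 8.74e-15).

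FPR1 had 7.24, 8.15 and 8.30 CPM with hairpin 2 and 2.75, 2.76 and 3.09 CPM with hairpin 4, against 0.438, 0.575 and 0.263 CPM with the scrambled hairpin. Its log2 fold change was 4.08 ± 0.17 with hairpin 2 (adjusted p = 2.76e-17) and 2.58 ± 0.20 with hairpin 4 (adjusted p = 2.05e-11), on 11 to 30 counts in the scrambled libraries. Both hairpin groups also lay above all DMSO libraries of FPR1 (0.966 to 1.48 CPM). FPR2, whose deposited interval lies inside that of FPR1 on the other strand, had 31.9 to 33.2 CPM with hairpin 2 and 21.2 to 22.5 CPM with hairpin 4, against 12.3 to 12.8 CPM, and rose by 1.28 ± 0.05 and 0.68 ± 0.05. The library kit does not mark strand, so reads in sequence shared by FPR1 (chromosome 19, 52248425 to 52307363, minus strand, hg19) and FPR2 (52255279 to 52273779, plus strand) cannot be told apart.

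C5AR1 was the receptor that stood higher with hairpin 4 than with hairpin 2. It had 10.7, 8.88 and 9.95 CPM with hairpin 2 and 12.4, 12.5 and 13.4 CPM with hairpin 4, against 2.39, 2.41 and 2.82 CPM with the scrambled hairpin. Its log2 fold change was 1.86 ± 0.10 with hairpin 2 and 2.20 ± 0.09 with hairpin 4. C3AR1 had 34.0 to 36.6 CPM with hairpin 2 and 24.7 to 27.1 CPM with hairpin 4, against 11.5 to 13.4 CPM, rises of 1.40 ± 0.06 and 0.92 ± 0.06.

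CCR1 had 61.7 to 64.3 CPM with hairpin 2 and 31.4 to 32.2 CPM with hairpin 4, against 15.1 to 16.5 CPM with the scrambled hairpin. Its log2 fold change was 1.91 ± 0.05 and 0.88 ± 0.05. CX3CR1 had 21.2 to 24.8 CPM and 15.3 to 16.0 CPM with the same hairpins, against 7.48 to 9.40 CPM, rises of 1.38 ± 0.07 and 0.80 ± 0.07. For these genes, as for CCR2, FPR1, FPR2, C5AR1 and C3AR1, the 6 SUV39H1 libraries lay above every scrambled library. The share of all genes that separated in this way was not counted.

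CXCR4 had 557, 528 and 558 CPM with hairpin 2 and 365, 358 and 368 CPM with hairpin 4, against 411, 422 and 424 CPM with the scrambled hairpin. The hairpin 2 libraries lay above the scrambled ones (0.30 ± 0.04, adjusted p = 9.37e-08) and the hairpin 4 libraries below them (-0.33 ± 0.04, adjusted p = 1.72e-08), so the hairpin mean of -0.02 ± 0.03 averaged opposite changes. That mean turned to 0.09 with no scaling factor beyond library size (adjusted p = 0.0101).

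The hairpins against SUV39H1 differed from each other in all 8 receptors, where 42.9% of all genes differed, 22.0% higher and 20.9% lower with hairpin 4. Hairpin 4 was lower than hairpin 2 in 7, from -0.48 ± 0.05 for C3AR1 to -2.56 ± 0.07 for CCR2, and higher in C5AR1 (0.33 ± 0.07, adjusted p = 0.000632). The SUV39H1 transcript stood at 19.3 and 22.4 CPM in these groups. The summed level of the 15 myelomonocytic markers also differed between these groups, at 4607 to 4657 CPM with hairpin 2 and 2997 to 3010 CPM with hairpin 4, against 1548 to 1568 CPM with the scrambled hairpin, and their part in the result was not tested. The sum was 2040 to 2146 CPM with the G9a hairpins, where 4 receptors fell and 3 rose. LYZ, the lysozyme gene, had the widest range of the 15 markers in CPM, at 265 to 2594 CPM over the 24 libraries, while CD33 (85.1 to 121 CPM), SPI1 (120 to 168 CPM) and CEBPA (123 to 178 CPM) spanned less.

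**Figure D3:**
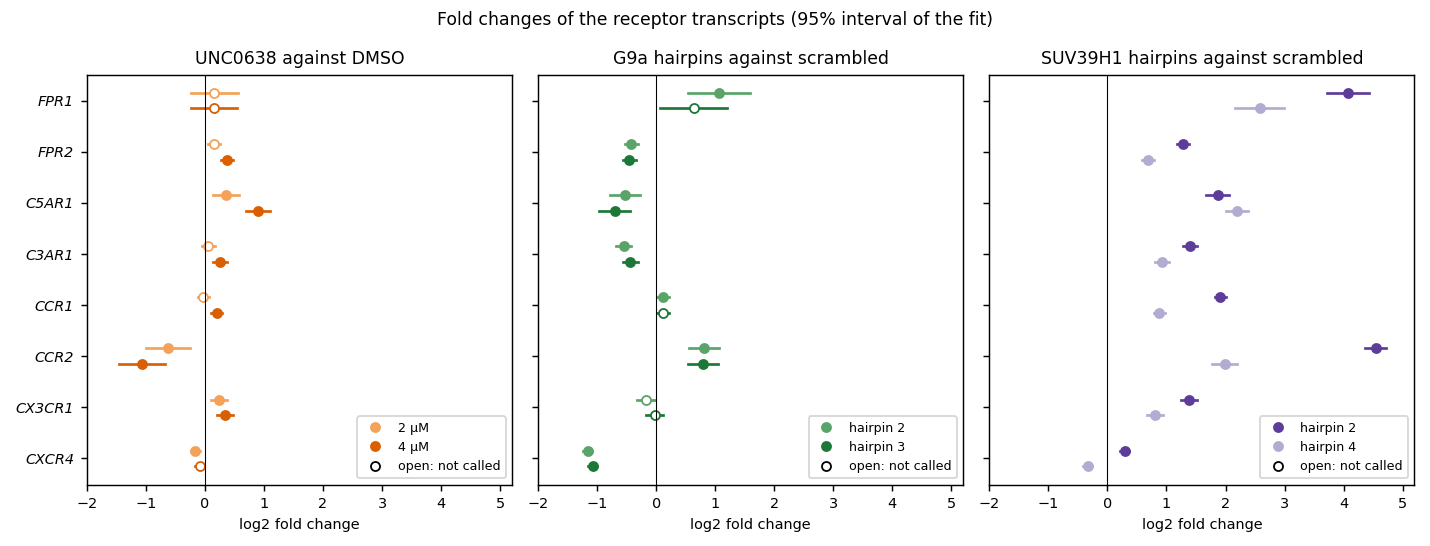
Log2 fold change of each receptor with its 95% interval, by dose or hairpin, filled where called at an adjusted p under 0.05. CCR2 lies below 0 with UNC0638 and above 0 with G9a and SUV39H1 hairpins, and CXCR4 lies below -1 with the G9a hairpins alone.

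Set directly against each other, the SUV39H1 hairpins gave higher values than the G9a hairpins in all 8 receptors, where 65.5% of all genes differed and 32.6% were higher. The differences ran from 1.10 ± 0.03 for CXCR4 to 2.65 ± 0.07 for C5AR1. The inhibitor and the hairpin arms have controls of their own, and these controls differed in 6 of the 8 receptors, where 31.4% of all genes differed. FPR1 was lower in scrambled than in DMSO libraries (0.425 ± 0.16 against 1.17 ± 0.27 CPM, log2 fold change -1.35 ± 0.25, adjusted p = 0.000115), so the G9a libraries, at 0.447 to 1.07 CPM, lay above most scrambled libraries yet mostly below the DMSO libraries. C3AR1 (-0.45 ± 0.06), CCR1 (-0.38 ± 0.05), CX3CR1 (-0.30 ± 0.07) and CXCR4 (-0.16 ± 0.04) were also lower in scrambled than in DMSO libraries, and CCR2 was higher (0.52 ± 0.15, adjusted p = 0.0106). CCR1 in the G9a libraries, at 16.7 to 18.0 CPM, likewise lay above the scrambled libraries and below all DMSO libraries (19.7 to 22.0 CPM).

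Whether inhibiting G9a and GLP and lowering G9a acted alike on these genes was tested as the difference of the 2 responses, each against its own control. The difference passed in 6 of 8 receptors, where 44.8% of all genes passed. C5AR1, C3AR1 and FPR2 rose at 4 µM and fell with the G9a hairpins, and CCR2 fell at 4 µM and rose with the hairpins, so that the tested differences were 1.51 ± 0.15, 0.75 ± 0.08, 0.81 ± 0.07 and -1.87 ± 0.22. CXCR4 differed by 1.04 ± 0.05 and CX3CR1 by 0.44 ± 0.09. The difference from the SUV39H1 response passed in 7 receptors, CXCR4 being the exception (called without a scaling factor, at -0.18), where 57.7% of all genes passed and 29.6% were lower, and all 7 were lower at 4 µM, from -0.61 ± 0.07 for FPR2 to -4.33 ± 0.22 for CCR2.

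The ordering of the groups was similar for most receptors. SUV39H1 hairpin 2 and then hairpin 4 stood highest for FPR1, FPR2, C3AR1, CCR1, CCR2 and CX3CR1, each apart from the next group with no overlap, and the pair was exchanged for C5AR1. The G9a groups stood lowest for FPR2, C5AR1, C3AR1 and CXCR4, apart from the other groups. How often groups separate in these ways over all genes was not counted. For CX3CR1 G9a hairpin 3 overlapped the scrambled libraries. Within G9a, the hairpins overlapped in FPR1, FPR2, CCR1, CCR2, C5AR1 and C3AR1, so their order carries no weight there. Across the 24 libraries, which fall into 8 groups, log2 CPM of the receptors was correlated from 0.0004 (CCR2 with CXCR4) to 0.958 (CX3CR1 with C3AR1). Libraries of 1 group share their treatment, so these are not 24 independent points.

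By the same measure, over 11882 candidate genes with a mean of at least 2 CPM, the gene most like FPR1 was BTN3A1 (r = 0.965), the one most like FPR2 was EMR1 (0.986) and the one most like C5AR1 was IRF9 (0.964). DAAM2 was most like C3AR1 (0.988), ITM2B most like CCR1 (0.986), SLCO2B1 most like CX3CR1 (0.987) and CHST11 most like CXCR4 (0.978). AIM1 (0.979), CYP4F3 and CYLD followed CCR2 most closely. By Spearman's rho 5 of the 24 genes so chosen remained among the 3 most like their receptor.

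Several receptors lie in clusters of related genes, and their neighbours were examined with the SUV39H1 hairpins. CCR2 (chromosome 3, 46395225 to 46402419, plus strand, hg19) has a called neighbour in CCRL2, an atypical receptor that binds chemerin, which rose by 0.94 ± 0.10 with hairpin 2 and by 0.42 ± 0.10 with hairpin 4. The transcript RP11-24F11.2 rose with hairpin 2 (1.76 ± 0.32) and gave 0.69 ± 0.36 with hairpin 4. LTF, which encodes lactoferrin and lies farther along the same side, fell by 0.80 ± 0.25 and 1.37 ± 0.26 on the log2 scale. On the other side, CCR3, the eotaxin receptor, did not pass (-0.18 ± 0.32 and -0.67 ± 0.32). These fold changes are against the scrambled hairpin, and DMSO levels differed from it. LTF averaged 0.999 CPM with the scrambled hairpin, 0.413 CPM in DMSO and 0.585 and 0.411 CPM with hairpins 2 and 4. For RP11-24F11.2 these means were 0.136, 0.545, 0.522 and 0.251 CPM, and for CCRL2 they were 2.60, 3.63, 5.25 and 3.75 CPM.

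CCR1 (chromosome 3, 46243200 to 46249887, minus strand) lies inside the deposited interval of CCR3 on the opposite strand, so their shared reads cannot be told apart. Beside C5AR1 (chromosome 19, 47793280 to 47825323, plus strand), its relative C5AR2 at 10.1 kb rose by 2.44 ± 0.18 with hairpin 2 and by 1.30 ± 0.20 with hairpin 4, the reverse of the hairpin order of C5AR1. In the same window MEIS3, a homeobox gene, rose by 2.04 ± 0.11 and 1.85 ± 0.11, BBC3, which encodes the pro-apoptotic protein PUMA, by 0.65 ± 0.08 and 0.50 ± 0.08, and PRR24 by 0.43 ± 0.09 and 0.52 ± 0.08, with hairpins 2 and 4. DHX34 and SAE1 fell by less than 0.4 on the log2 scale with each hairpin, MIR3191 was called higher with hairpin 2 alone and CCDC9 with hairpin 4 alone (0.22 ± 0.07). FPR3, the remaining formyl peptide receptor, overlaps the FPR1 interval, did not pass the low-count filter and had 31 counts with hairpin 2 and 18 with hairpin 4, against 2 with the scrambled hairpin (depth-scaled ratios 17.8, 95% counting interval 4.53 to 154, and 8.0, interval 1.92 to 71.1). HAS1, a hyaluronan synthase, rose by 1.54 ± 0.47 and 1.09 ± 0.47 at 125 counts in the whole series. It averaged 0.304 and 0.223 CPM with hairpins 2 and 4 and no more than 0.0898 CPM in another group. HAS1 thus passed the low-count filter only through the SUV39H1 libraries, so its calls carry no weight. SIGLEC5, a sialic acid receptor at the edge of the FPR1 window, fell by 1.28 ± 0.06 with hairpin 2 and gave -0.04 with hairpin 4. SIGLEC14 rose by 0.47 ± 0.08 and 0.37 ± 0.08. Rises of the receptors were thus not shared by every gene nearby.

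**Figure D4:**
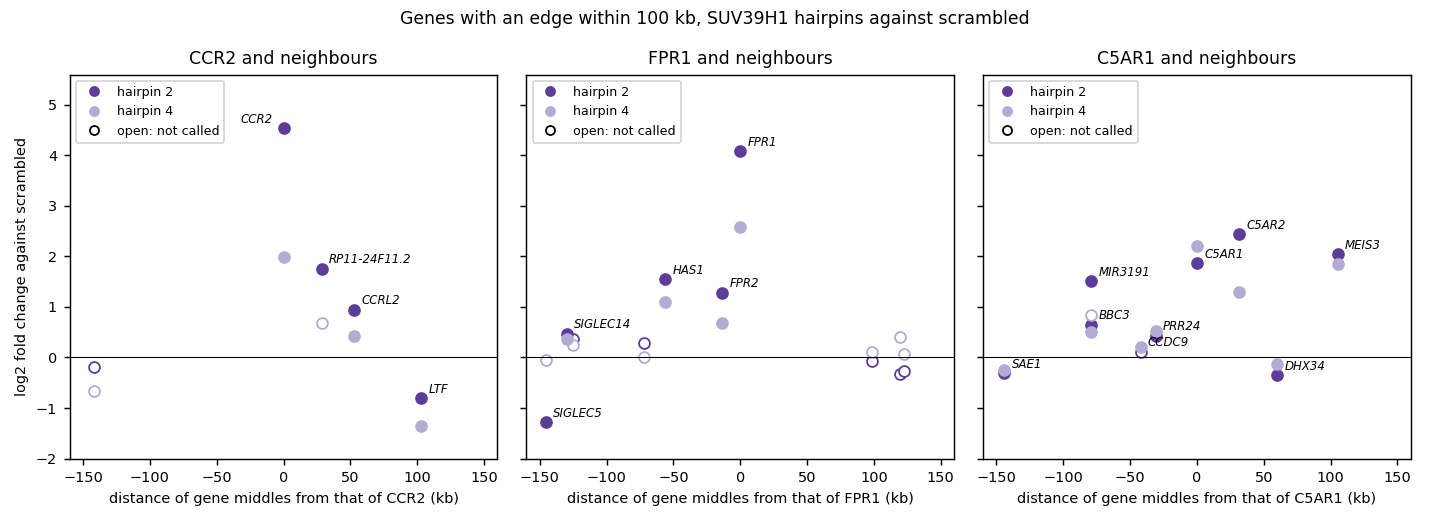
Log2 fold change with SUV39H1 hairpins 2 and 4 against scrambled for the reported genes with an edge within 100 kb of CCR2, FPR1 or C5AR1, by distance between gene middles. Near CCR2, CCRL2 lies above 0 and LTF below 0, while near FPR1 the zinc finger genes lie close to 0.

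The genes coding for ligands of the 8 receptors were examined next, 15 of 22 of which passed the filter. CXCL12 and CX3CL1, the main ligands of CXCR4 and CX3CR1, did not. At 4 µM 8 ligand genes rose and 1 fell (median 0.32 beside -0.00589 over all genes), at 2 µM 5 rose, with the G9a hairpins 3 rose and 7 fell (median -0.51), and with the SUV39H1 hairpins 11 rose and 2 fell (median 0.65). The calls over all genes in these 4 comparisons were 19.9%, 7.17%, 49.9% and 67.8%. CCL8 is among the 8 that rose at 4 µM and the 5 at 2 µM. It averaged 0.415 CPM at 4 µM and no more than 0.168 CPM in another group. CCL8 thus passed the low-count filter only through the 4 µM libraries, so its calls with UNC0638 add no support.

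CCL2, the principal ligand of CCR2, averaged 100.1 ± 1.1 CPM at 4 µM and 63.5 ± 1.8 CPM at 2 µM, against 50.2 ± 1.2 CPM in DMSO, with log2 fold changes of 1.00 ± 0.05 and 0.34 ± 0.05. It averaged 30.3 ± 1.2 and 30.6 ± 2.3 CPM with G9a hairpins 2 and 3, against 92.8 ± 3.1 CPM with the scrambled hairpin (-1.62 ± 0.04 for the hairpin mean). With SUV39H1 hairpins 2 and 4 it averaged 267 ± 3.6 and 206 ± 9.6 CPM (1.23 ± 0.04). CCL2 thus moved opposite to CCR2 with UNC0638 and with the G9a hairpins, and in the same direction with the SUV39H1 hairpins.

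CCL8, another CCR2 ligand, had 1 count over the DMSO libraries, 15 at 2 µM and 58 at 4 µM. The ratio to DMSO was 14.6 at 2 µM (95% counting interval 2.25 to 615) and 51.5 at 4 µM (8.88 to 2069). Of the ligands that CCR1 reads, CCL3 rose by 0.52 ± 0.06 at 4 µM and fell by 0.88 ± 0.06 with the G9a hairpins, CCL5 fell by 0.51 ± 0.04 with the G9a hairpins, and CCL23 rose by 0.24 ± 0.07 at 2 µM. CCL4, a close relative of CCL3, rose by 1.16 ± 0.10 at 4 µM and by 0.66 ± 0.11 at 2 µM.

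C3, the precursor of C3a, averaged 451 ± 13 and 315 ± 17 CPM with SUV39H1 hairpins 2 and 4, against 56.4 ± 5.4 CPM with the scrambled hairpin (2.63 ± 0.07, adjusted p = 4.16e-21), so that the transcript of C3AR1 and that of its ligand's precursor rose together. C5, the precursor of C5a, rose by 0.72 ± 0.06 with the G9a hairpins, where C5AR1 fell. ANXA1, whose product binds FPR1 and FPR2, rose by 1.60 ± 0.07 with the SUV39H1 hairpins, and CAMP, the precursor of the FPR2 ligand LL-37, rose by 1.59 ± 0.10.

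**Figure D5:**
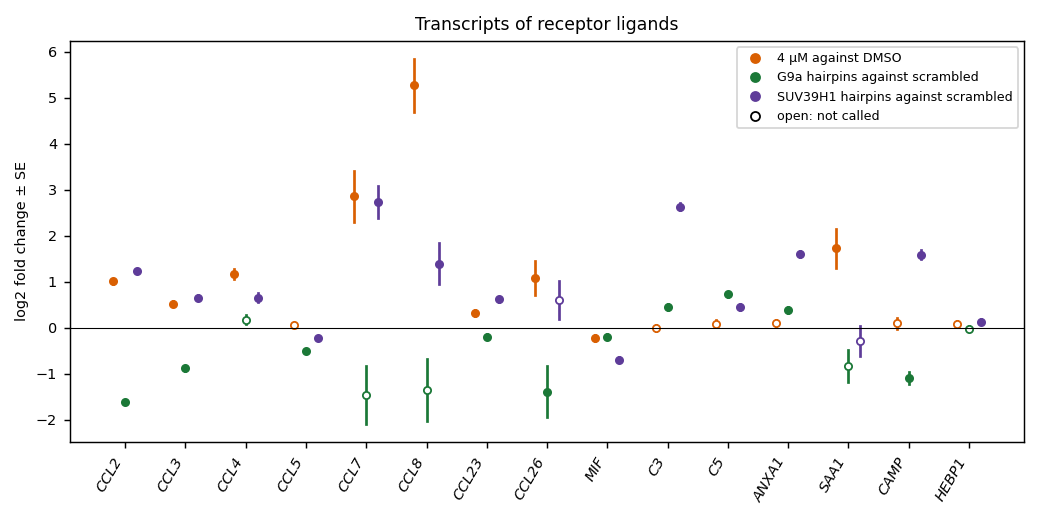
Log2 fold change ± SE of the 15 tested ligand genes at 4 µM UNC0638 against DMSO and with G9a or SUV39H1 hairpins against scrambled, filled where called. CCL2 lies at 1.00, -1.62 and 1.23 in these comparisons, and the CCL8 value at 4 µM rests on 1 count in DMSO.

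Among 27 other chemoattractant receptors 18 passed the filter. At 4 µM 1 rose (CCR3, 0.95 ± 0.23) and 1 fell (ACKR4, a scavenger of CC chemokines, -0.53 ± 0.17), and at 2 µM CCR3 rose (1.05 ± 0.23) and PTAFR, the platelet-activating factor receptor, fell by 0.17 ± 0.04, beside 19.9% and 7.17% of all genes called. With the G9a hairpins 2 rose and 4 fell (median -0.01), beside 49.9% of all genes. PTAFR averaged 27.8 ± 0.79 and 28.3 ± 0.49 CPM with hairpins 2 and 3, against 80.0 ± 1.6 CPM with the scrambled hairpin (-1.53 ± 0.04), a fold change below those of the 8 receptors above. LTB4R, the leukotriene B4 receptor, and PTGDR2, a prostaglandin D2 receptor, fell by 0.26 ± 0.03 and 0.62 ± 0.11. PTGDR2 averaged 1.66 CPM with the scrambled hairpin, 1.10 CPM in DMSO and 1.09 and 1.07 CPM with G9a hairpins 2 and 3. OXER1, which reads an oxidised eicosanoid, rose by 0.49 ± 0.10.

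With the SUV39H1 hairpins 11 of these 18 receptors rose and 2 fell, where 67.8% of all genes were called and 35.1% were higher. The share called in either direction is thus near that of all genes, while the share that rose is larger. The median of the 18 was 0.38, beside 0.0251 over all genes. PTAFR averaged 168 ± 5.1 and 116 ± 4.1 CPM with hairpins 2 and 4 and rose by 0.69 ± 0.04, C5AR2 rose by 1.87 ± 0.17, and ACKR2, a scavenger of inflammatory CC chemokines, rose by 0.63 ± 0.07. PTGDR2 fell by 1.39 ± 0.12.

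Of 38 genes that carry or switch off the receptors' signal, 37 passed the filter. At 4 µM 2 rose and 7 fell, where 19.9% of all genes were called, all of those named by less than 0.3 on the log2 scale: the G protein subunit GNA15 fell by 0.29 ± 0.06, the Src family kinase FGR fell by 0.19 ± 0.04, and the GTPase RAC1 rose by 0.18 ± 0.04. At 2 µM, where 7.17% of all genes were called, 3 rose and 2 fell, among them the regulator RGS3 (0.74 ± 0.15), the receptor kinase GRK5 (0.21 ± 0.06), the phospholipase PLCB2 (-0.26 ± 0.06) and FGR (-0.33 ± 0.04). With the G9a hairpins 12 rose and 11 fell, where 49.9% of all genes were called. RGS16, which shortens G protein signals, fell by 1.09 ± 0.06. PIK3CG, the phosphoinositide 3-kinase downstream of these receptors, fell by 0.41 ± 0.04. The kinase PAK2 fell by 0.37 ± 0.04 and the G protein subunit GNG2 rose by 0.73 ± 0.06. GNG2 averaged 10.8 CPM with the scrambled hairpin, 19.4 CPM in DMSO and 17.9 and 18.6 CPM with G9a hairpins 2 and 3. 

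With the SUV39H1 hairpins 19 of the 37 rose and 7 fell, where 67.8% of all genes were called and 35.1% were higher. The share called in either direction is thus near that of all genes, while the share that rose is larger. The median of the 37 was 0.08, beside 0.0251 over all genes. FGR averaged 170 ± 1.7 and 173 ± 4.0 CPM with hairpins 2 and 4, against 53.5 ± 1.5 CPM with the scrambled hairpin (1.57 ± 0.04), and the Rac activator PREX1 rose by 0.84 ± 0.04. RGS16 averaged 4.66 ± 0.77 and 7.58 ± 0.63 CPM, against 18.0 ± 0.77 CPM (-1.70 ± 0.06), and so fell with both knockdowns.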

How the data were processed

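The authors deposited whole-number counts per gene name for 24 libraries. Per the submitters' processing notes, reads were aligned with STAR and counted with featureCounts on hg19, with versions and settings not given in the sources used here. Per the labels' protocols the kit was TruSeq RNA v2. The deposited gene length, another value in that table, was used for levels per kb, and the deposited table of transposon counts was not used here.

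Genes were kept by filterByExpr (minimum count 10, minimum total count 15), scaled by TMM and fitted with edgeR 4.0.16 in R 4.3.3 (glmQLFit and glmQLFTest, 1 mean per group, all 24 libraries). TMM factors lay between 0.968 and 1.067. CPM used library totals with no such factor. Alternatives were RLE or no scaling, DESeq2 1.42.0, no filter, the compared libraries alone, a replicate block and leaving out each library. The fit was tested on simulated counts.

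Named genes were the 8 receptors, the targeted genes, up to 4 called members with the smallest p per list and main comparison, the 3 genes most like each receptor by Pearson correlation, and genes within 100 kb. 2 genes that this rule names are not reported here. FPR3, CXCL12 and CX3CL1 did not pass the filter and were named after their values were seen. The receptors and lists were chosen with earlier results of these data known. Intervals on counts cover counting error only.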

Additional observations from a re-analysis of the deposited data

Results flagged for a closer look

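The response to 4 µM UNC0638 against DMSO and the response to the G9a hairpins against scrambled differed in 6 receptors in a test of the difference itself (edgeR, adjusted over all genes). The 4 µM log2 fold change minus the G9a one was 1.51 for C5AR1, 1.04 for CXCR4, 0.81 for FPR2, 0.75 for C3AR1, 0.44 for CX3CR1 and -1.87 for CCR2. The 4 µM response minus the SUV39H1 response differed in 7 receptors: -4.33 for CCR2, -3.18 for FPR1, -1.19 for CCR1, -1.13 for C5AR1, -0.91 for C3AR1, -0.75 for CX3CR1 and -0.61 for FPR2. Each response has its own control, and these controls differed in 6 of the 8 receptors, and their part in the differences was not tested.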

How the results depend on the processing

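The receptors called with each SUV39H1 hairpin, between them, between the knockdowns and among the 8 groups numbered 8 under every alternative run, and with the SUV39H1 mean 7, or 8 without a scaling factor. At 2 µM 4 receptors were called, against 2 by DESeq2, 0 when the compared libraries were fitted alone and 1 to 3 with 1 library left out, and the cause was not tested beyond the smaller fits having fewer libraries. With 1 library left out, the counts were 6 to 7 at 4 µM, 2 to 3 between doses, 6 to 7 for the G9a mean, 6 to 8 and 5 to 6 for its hairpins, and 5 to 6 between the controls. CXCR4 with the SUV39H1 hairpins turned to 0.0905 without a scaling factor. CCR1 with the G9a hairpins lost its call with RLE (0.10), no filter (0.12), DESeq2 (0.10), the compared libraries alone (0.12), and without G9a hairpin 2 replicate 3 (0.10) or scrambled replicate 2 (0.08) or 3 (0.11). FPR1 between the 4 µM and G9a responses became called (-1.04 to -0.77) without 1 of 5 libraries and with no low-count filter (-0.70), and CXCR4 between the 4 µM and SUV39H1 responses without a scaling factor (-0.18). Over all genes, the compared libraries alone called 1993 at 4 µM (4012 in the full fit), 717 at 2 µM (1444) and 236 between doses (371). Leaving out DMSO replicate 1 gave 2197 at 2 µM, and leaving out 1 library gave 2690 to 5518 at 4 µM and 215 to 276 between doses. Between the G9a hairpins 0 to 11 genes were called across settings, beside 2. Equal replicate numbers were not taken to pair the libraries. Same-numbered libraries of different groups had a median r of 0.0417, against -0.0187 for differently numbered ones, and 16 of 84 such pairs correlated above 0.1. For 15 of 24 libraries the closest library of another group had the same number. Some likeness by number is thus present, and the labels name no batch. The replicate block moved no count by over 1.5 times, and under it CX3CR1 with G9a hairpin 2 (-0.17) and C3AR1 between doses (0.20) became called. TMM-scaled CPM moved 16 of 64 group levels by over 1 SD. FPR1 and CCR2, at 11 to 68 counts per library in the controls and with UNC0638, carry the widest errors.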
